A study of Homo sapiens with 4 samples.

Results

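In MV4;11 leukemia cells treated with vehicle, 251 of the 1359 H3K36me2 peaks listed on chromosomes 1 to 22 and X were overlapped by at least 1 bp of an ASH1L peak. These regions, where listed peaks of both antibodies overlapped in vehicle-treated cells, are called shared regions here. The peaks were called without a control, so an overlap does not by itself show that enzyme and mark were present together. Of these, 217 lay away from large assembly gaps, and 34 lay within 2 Mb of a run of at least 1 Mb of undetermined bases in hg19, of which the chromosomes hold 25. Both sets are described separately. The 217 regions were 16.7% (95% interval 14.7% to 18.8%) of the 1303 H3K36me2 peaks away from gaps, and the 34 were 60.7% (46.8% to 73.5%) of the 56 beside gaps. All 4 peak lists together held 6948 peaks.

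MV4;11 is a human leukemia cell line in which the MLL1 gene is rearranged. The cells received 5 µM AS-99, a small-molecule inhibitor of ASH1L, or 0.25% DMSO as vehicle for 4 days, and fragments were released by CUT&RUN, in which an antibody bound in permeabilised cells directs a nuclease to its target. The 4 libraries were 1 each of DMSO H3K36me2, DMSO ASH1L, AS-99 H3K36me2 and AS-99 ASH1L, all from the same cell line, with no replicate. No library without a specific antibody was analysed here, and the lists hold no expression values against which the cell line could be checked. The libraries held 15584143, 19635489, 13208636 and 15381860 fragments after filtering, in the order given. Their lists held 1375, 3092, 652 and 1829 peaks in the same order, so both AS-99 lists were shorter than the DMSO list of the same antibody.

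ASH1L is a SET domain enzyme that dimethylates lysine 36 of histone H3, a mark that is also written by the NSD family and that usually spreads over broad stretches of gene bodies and intergenic chromatin. In leukemia with MLL1 rearrangement, ASH1L is known to act beside MLL1 at developmental genes such as the HOXA cluster, where LEDGF reads the methylated histone. Peak lists of the kind used here capture narrow local maxima and not broad domains. A shared region is therefore a place where both antibodies gave a local maximum.

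The regions were chosen by the presence of a listed peak of both antibodies with DMSO, so their DMSO levels, which those calls rest on, are a description. The summit pileup, which is the number of fragments covering a peak's summit and is not scaled to library size, had a median of 21 (range 12 to 90) for H3K36me2 at the 217 shared regions away from gaps. It was 18 (10 to 52) at the 1086 H3K36me2 peaks without ASH1L. The ASH1L pileup of the same 217 regions had a median of 20 (11 to 235), and the 2760 ASH1L peaks without H3K36me2 had one of 16 (10 to 93). Fold enrichment over the local background, as the authors' caller gave it, had medians of 4.64 for H3K36me2 and 5.23 for ASH1L. Most shared regions were thus low peaks, resting on about 20 fragments of either antibody. Regions with more H3K36me2 fragments tended to have more ASH1L fragments, loosely (Spearman's rho 0.40 across the 217 regions, a description, since regions share their libraries).

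Sequence is shown for 4 shared regions that differ in their state with AS-99, to give the scale on which both summits lie. Each is 300 bases of the GRCh37 reference, plus strand, centred on the H3K36me2 summit and clear of protein-coding exons. Capitals mark the bases from one summit to the other, both included. The first, chr19:6522142-6522441, is intergenic and 8552 bp from TNFSF9 and was listed in all 4 lists. The second, chr5:140044069-140044368, is in the promoter of WDR55 and kept only an H3K36me2 peak with AS-99. The third, chr1:36852551-36852850, is at the promoter of STK40, and the fourth, chr11:60145422-60145721, at the promoters of MS4A7 and MS4A14, and neither had a peak in an AS-99 list.
TNFSF9: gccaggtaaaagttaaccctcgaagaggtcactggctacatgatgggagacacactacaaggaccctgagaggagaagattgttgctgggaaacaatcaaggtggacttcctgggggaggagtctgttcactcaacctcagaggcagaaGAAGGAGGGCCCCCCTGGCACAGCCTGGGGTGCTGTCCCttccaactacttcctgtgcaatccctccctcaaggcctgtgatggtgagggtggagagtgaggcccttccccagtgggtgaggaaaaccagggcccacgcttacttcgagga
WDR55: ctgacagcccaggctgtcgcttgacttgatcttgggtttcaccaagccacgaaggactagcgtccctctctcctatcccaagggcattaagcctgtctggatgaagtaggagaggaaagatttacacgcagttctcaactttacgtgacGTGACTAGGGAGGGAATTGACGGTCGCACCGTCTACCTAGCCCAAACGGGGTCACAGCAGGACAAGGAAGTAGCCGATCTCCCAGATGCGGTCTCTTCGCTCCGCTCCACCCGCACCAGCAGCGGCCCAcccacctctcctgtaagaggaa
STK40: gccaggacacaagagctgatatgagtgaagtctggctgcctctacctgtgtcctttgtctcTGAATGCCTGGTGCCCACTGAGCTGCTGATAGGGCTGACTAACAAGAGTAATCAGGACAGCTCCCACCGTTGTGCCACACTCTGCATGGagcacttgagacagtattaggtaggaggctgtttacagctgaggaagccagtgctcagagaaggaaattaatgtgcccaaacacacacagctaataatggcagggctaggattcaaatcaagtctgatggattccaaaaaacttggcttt
MS4A7 and MS4A14: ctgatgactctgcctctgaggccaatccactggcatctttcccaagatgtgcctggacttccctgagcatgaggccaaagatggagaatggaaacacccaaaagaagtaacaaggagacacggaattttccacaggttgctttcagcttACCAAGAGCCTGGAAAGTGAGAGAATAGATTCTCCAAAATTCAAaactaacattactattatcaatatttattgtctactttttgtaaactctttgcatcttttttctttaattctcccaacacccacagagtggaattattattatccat

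The capitals span 39, 129, 89 and 44 bases, for summit distances of 38, 128, 88 and 43 bp. Over the 217 regions the summits lay a median of 104 bp apart (83 to 110, the interval of the median over regions; range 0 to 649). The distance is a description, since the rule asks for overlapping peaks, and the H3K36me2 peaks had a median length of 381 bp. Fragment size, as the caller set it, was 288 bp for DMSO H3K36me2 and 250 bp for DMSO ASH1L, which limits how finely a summit is placed. They were within 50 bp of each other in 61 regions and within 300 bp in 188. In 167 regions each summit lay inside the other antibody's peak, and the overlap had a median of 295 bp or 76.9% of the H3K36me2 peak. The ASH1L peak lay wholly inside the H3K36me2 peak in 56 regions and the reverse held in 21.

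**Figure D1:**
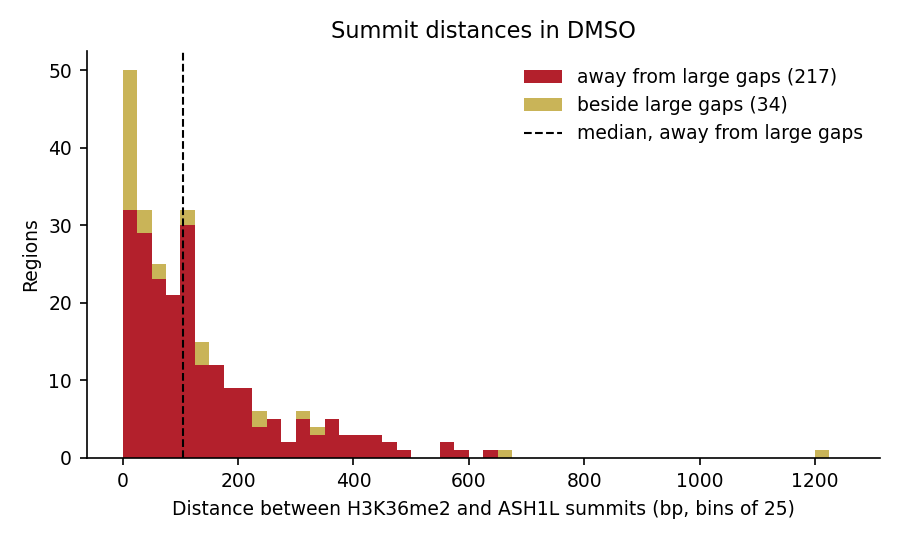
Distance in bp between the H3K36me2 and the ASH1L summit of each shared region with DMSO, in bins of 25 bp, with regions away from large gaps in red (217) and beside large gaps in yellow (34) stacked. The dashed line is the median of 104 bp away from gaps; beside gaps most regions sit in the lowest bins, with a median of 9 bp.

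The threshold of the rule was an overlap of 1 bp. The region with the smallest overlap, 10 bp, was at chr5:142933536-142933966, 118459 bp from NR3C1, the glucocorticoid receptor gene, with summits 585 bp apart. The other small overlaps measured 44 bp near CYP1B1, 56 bp in an intron of LIMD1, 57 bp in an intron of CSPG4 and 64 bp in an intron of EPS15L1. Just outside the rule were H3K36me2 peaks 10 bp from an ASH1L peak near PPCDC, 14 bp near MYOM2, 19 bp near MDM1, 47 bp in an intron of NR1H2 (a liver X receptor gene) and 48 bp near TOX. Of the 1086 H3K36me2 peaks without ASH1L, 21 had an ASH1L peak within 1 kb and 67 within 10 kb.

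The study asked whether inhibition of ASH1L lowers H3K36me2, and the AS-99 libraries did not enter the choice of regions. Away from gaps, 143 of the 217 shared regions (65.9%, 59.2% to 72.2%) had a peak in neither AS-99 list, 36 had only an ASH1L peak, 16 only an H3K36me2 peak and 22 both. Among all 1303 DMSO H3K36me2 peaks away from gaps, 86.6% had a peak in neither list. Of the 1086 H3K36me2 peaks without ASH1L, 985 (90.7%) had neither. These shares are a description, since the sets had been split by an ASH1L peak with DMSO and the others had no ASH1L peak to lose.

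**Figure D2:**
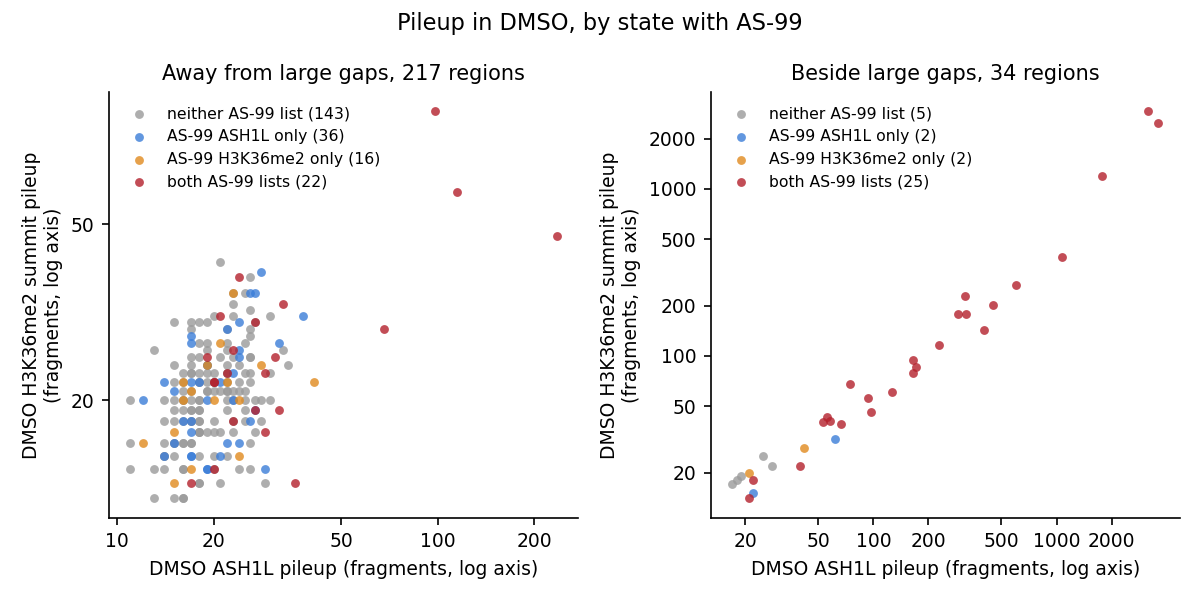
Summit pileup in fragments of H3K36me2 (vertical, log axis) against ASH1L (horizontal, log axis) with DMSO, 1 point per shared region, coloured by its state in the AS-99 lists, away from large gaps on the left and beside them on the right. Away from gaps 143 grey points with a peak in neither AS-99 list mix with the coloured ones at pileups below 50, and the 3 regions with the highest H3K36me2 pileup are in both AS-99 lists; beside gaps 25 of 34 are in both.

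For H3K36me2 itself, an AS-99 peak overlapped 38 of the 217 shared regions (17.5%, 12.7% to 23.2%). This compares with 50 of the 1086 peaks without ASH1L (4.60%, 3.44% to 6.03%) and 6.75% of all DMSO H3K36me2 peaks away from gaps. The difference was 12.9 percentage points (8.21 to 18.6). Its interval covers counting error over peaks and not variation between libraries, and the difference has no replicate check. By the rule, shared regions were called with both antibodies with DMSO, and they were longer (median 381 bp against 347 bp). The part of either in the difference was not tested. For ASH1L, 58 of the 217 (26.7%, 21.0% to 33.1%) were overlapped by an AS-99 ASH1L peak, against 57 of 1086 (5.25%) and 8.83% of all. The sets were split by a DMSO peak of the same antibody, so nothing is read from that contrast. Both antibodies gave an AS-99 peak at 22 shared regions (10.1%), at 6 of the 1086 others (0.552%) and at 2.15% of all, a count that the split touches in the same way.

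Seen from the ASH1L side, DMSO ASH1L peaks that overlapped a DMSO H3K36me2 peak were found again with AS-99 in 59 of 217 cases (27.2%). Those without H3K36me2 were found again in 282 of 2760 (10.2%), a difference of 17.0 points (11.4 to 23.3), and the share over all DMSO ASH1L peaks away from gaps was 11.5%. Within the shared regions, an AS-99 H3K36me2 peak was listed more often where an AS-99 ASH1L peak was. Where an AS-99 ASH1L peak was listed, 22 of 58 regions (37.9%) also had an AS-99 H3K36me2 peak, and where none was listed 16 of 159 (10.1%) had one. The difference was 27.9 points (15.2 to 41.3). Neither contrast was split by pileup. DMSO ASH1L peaks with H3K36me2 had a higher median ASH1L pileup than those without (20 against 16). Shared regions in both AS-99 lists had higher DMSO medians than those in neither (24 against 20 for H3K36me2, 27 against 19 for ASH1L). The part of pileup in these differences was not tested.

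Shared regions had higher pileups than the other H3K36me2 peaks, so retention was also compared within 4 classes of DMSO H3K36me2 pileup. At 15 fragments or fewer, 6 of 35 shared regions had an AS-99 H3K36me2 peak, against 10 of 272 others. At 16 to 19 the counts were 6 of 50 and 13 of 395, at 20 to 24 they were 13 of 76 and 12 of 283, and at 25 or more 13 of 56 and 15 of 136. The share was higher in shared regions in all 4 classes, by 13.5, 8.71, 12.9 and 12.2 points, and the lowest bound of the 4 intervals was 1.06 points. The classes use the DMSO pileup on which the calls rest, and the part of pileup in the difference was not tested. In the plot of shares by pileup class, the values for an AS-99 ASH1L peak are shown as a description only.

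**Figure D3:**
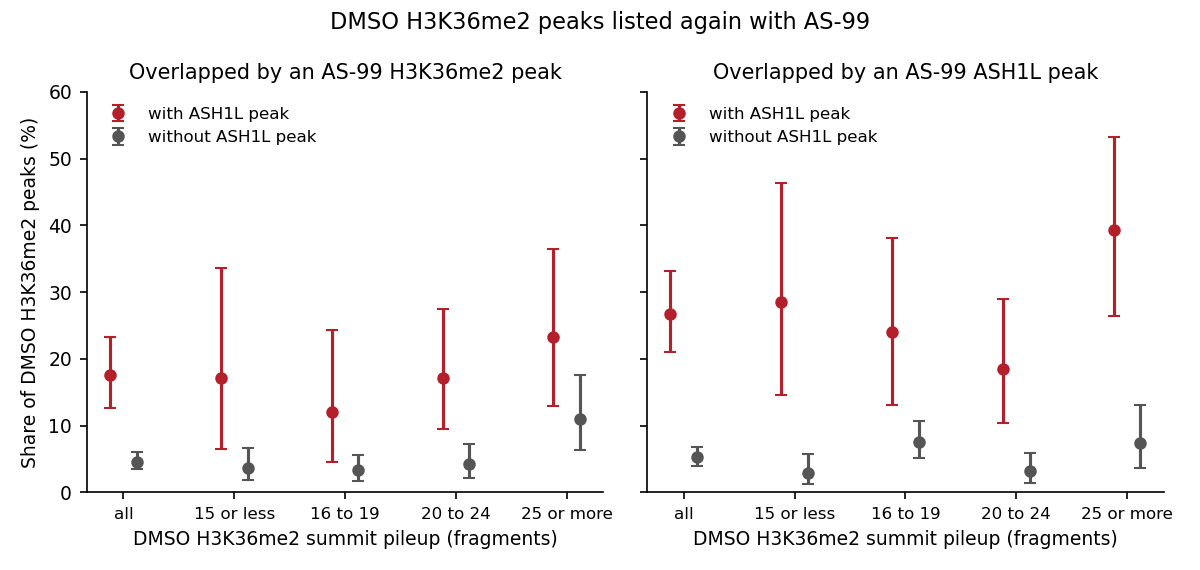
Share in percent of DMSO H3K36me2 peaks away from large gaps that are overlapped by an AS-99 H3K36me2 peak (left) or an AS-99 ASH1L peak (right), over all peaks and by class of DMSO H3K36me2 summit pileup, with ASH1L in red and without in grey. Bars are exact 95% intervals; for H3K36me2 the red points lie above the grey ones in every class, at 17.5% against 4.60% over all peaks, and the right panel is a description, since the sets were split by a DMSO ASH1L peak.

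The AS-99 H3K36me2 library held 0.848 times the filtered fragments of the DMSO library, and the AS-99 ASH1L library 0.783 times those of its DMSO library. The part of this difference in depth in the number of listed regions was not tested. A region that is not listed was below the calling threshold, and its signal there is not known from the lists.

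At shared regions listed with both treatments the H3K36me2 pileup, scaled to depth, was as often higher as lower. Over the 38 peaks matched 1 to 1, the log2 ratio of summit pileup divided by filtered fragments, AS-99 over DMSO, had a median of −0.03 (−0.19 to 0.14), with 19 regions higher and 19 lower. Over the 50 matched H3K36me2 peaks without ASH1L the median was −0.11 (−0.27 to −0.01), with 17 higher and 33 lower. Over all matched H3K36me2 peaks away from gaps, 40.9% were higher. Among the shared regions the ratio was lowest near SDC2, at −0.84 (38 fragments with DMSO and 18 with AS-99). It was highest in an intron of HFM1, at 1.36 (47 and 102). For ASH1L the median over 59 matched peaks was 0.19 (0.08 to 0.26), with 44 higher and 15 lower, against 69.5% higher over all matched ASH1L peaks and a median of 0.15 (0.12 to 0.23) over the 282 without H3K36me2. Without division by filtered fragments the medians were −0.27 (−0.43 to −0.10) for H3K36me2, whose interval then excluded 0, and −0.16 (−0.28 to −0.09) for ASH1L, whose direction thus depends on the scaling. For either antibody the interval overlapped that of the matched peaks of the other set. A pair exists only where both libraries of an antibody gave a call. The paper's methods name Drosophila spike-in chromatin for calibration, which was not used here. A change of the mark over the whole genome would thus not show in the scaled ratio.

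**Figure D4:**
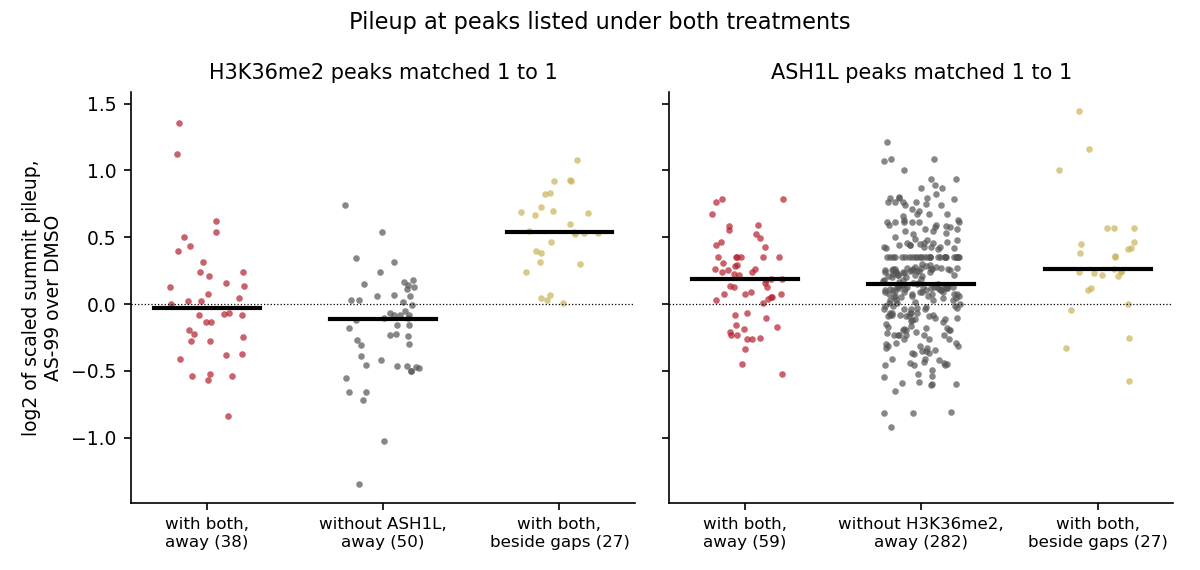
log2 ratio of summit pileup divided by filtered fragments, AS-99 over DMSO, for H3K36me2 peaks (left) and ASH1L peaks (right) matched 1 to 1, with 1 point per peak, the number of peaks in brackets and black lines at the medians. Shared regions away from gaps centre on −0.03 for H3K36me2 and 0.19 for ASH1L, and those beside gaps on 0.54 and 0.26.

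Shared regions were mostly outside promoters. Of the 217, 16 lay within 1 kb of the start of a protein-coding gene (7.37%), 17 in exons, 79 in introns (36.4%) and 105 between genes (48.4%). The promoter share of H3K36me2 peaks without ASH1L was 4.97%, and the difference of 2.40 points had an interval that included 0 (−0.74 to 6.82). With an overlap of at least 50% of both peaks it was 4.22 points (0.36 to 9.91), an interval above 0, and with a fold enrichment of at least 5 it was 0.12 (−5.92 to 10.9). Introns held 45.1% of the peaks without ASH1L, a difference of −8.71 points (−15.5 to −1.50), and exons 4.42%, a difference of 3.41 points (0.21 to 7.90). The larger contrast was with ASH1L: 741 of the 2760 ASH1L peaks without H3K36me2 were at promoters (26.8%), against 15 of the 217 that had it (6.91%), a difference of −19.9 points (−23.1 to −15.5). By class, an AS-99 H3K36me2 peak was listed at 2 of 16 promoter, 3 of 17 exon, 12 of 79 intron and 21 of 105 intergenic regions. An AS-99 ASH1L peak was listed at 1, 6, 15 and 36 of them. Over all DMSO H3K36me2 peaks away from gaps the shares were 6.75% and 8.83%. Peaks without ASH1L were not divided by class in this way, so nothing is read from these counts.

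The 15 promoter regions with the highest ASH1L fold enrichment, of 16, are given with their DMSO pileups. At the promoter shared by PARP9 and DTX3L, an ADP-ribosyltransferase and its partner ubiquitin ligase in the interferon response, the pileup was 13 for H3K36me2 and 29 for ASH1L with DMSO, and no AS-99 peak was listed. STING1, the adaptor that signals cytosolic DNA, had 20 and 18, and CCL3, a macrophage chemokine, had 20 and 27, again with no AS-99 peak at either. MS4A7 and MS4A14, of a family of membrane proteins found on myeloid cells, had 21 and 19 at the region printed above.

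PSMD9, an assembly chaperone of the proteasome, had 22 for H3K36me2 and 26 for ASH1L, and ANAPC15, a subunit of the anaphase-promoting complex, had 19 and 17. CTBS, a lysosomal enzyme that breaks down glycoproteins, had 19 and 22. STK40 had 18 and 23, TMEM53 with ARMH1 21 and 24, WDR81 12 and 15, TMED1 with C19orf38 15 and 22, SHANK1 18 and 20, and ENSG00000235007 22 and 20. None of these had a peak in an AS-99 list. Neither list held a peak at 65.9% of the 217 shared regions and at 86.6% of all DMSO H3K36me2 peaks away from gaps. An AS-99 peak was listed at 2 of the 15 promoters.

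The first was SIGLEC10, an inhibitory receptor of immune cells that binds sialic acid, whose region at chr19:51920465-51920879 was in all 4 lists. Its pileups were 25 (DMSO H3K36me2), 31 (DMSO ASH1L), 30 (AS-99 H3K36me2) and 30 (AS-99 ASH1L), so no library stood apart from the others beyond the Poisson intervals, which ran from 16.2 to 36.9 for the lowest value and from 21.1 to 44 for the highest. At the promoter of WDR55, a nucleolar protein gene, H3K36me2 had 22 fragments with DMSO and 13 with AS-99, and ASH1L had 22 with DMSO and no listed AS-99 peak. The intervals of 22 (13.8 to 33.3) and 13 (6.92 to 22.2) overlapped.

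Regions in all 4 lists had the highest levels. The 22 regions had a median DMSO H3K36me2 pileup of 24 and a DMSO ASH1L pileup of 27, compared with 20 and 19 in the 143 regions listed in neither AS-99 list. The 12 with the highest H3K36me2 fold enrichment included several in repeated sequence, measured as the share of 24-base words of the 300 bp around the summit that occur more than once in the reference. The region in an intron of HFM1, chr1:91852810-91853121, had 95.7% repeated words, all of them also on an unplaced contig that is known to hold ribosomal RNA genes. Its pileups were 47 (DMSO H3K36me2), 235 (DMSO ASH1L), 102 (AS-99 H3K36me2) and 135 (AS-99 ASH1L), so ASH1L was higher with DMSO and H3K36me2 with AS-99. At chrX:108297392-108297818, inside an annotated pseudogene 317599 bp from IRS4, the fold enrichment was the highest of all shared regions away from gaps, at 20.1 for H3K36me2 and 25.5 for ASH1L. The pileups there were 59, 115, 58 and 81 in the same order, and 48% of the words were repeated.

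At chr17:41400008-41401153, 27947 bp from TMEM106A, the H3K36me2 pileup was the highest away from gaps, with 90, 98, 73 and 79 fragments in the same order. A neighbour at chr17:41381836-41382262, inside the non-coding gene LINC00854, had 33, 33, 24 and 24. The region near TMEM132C had 29, 68, 25 and 46. A pair of regions at the REXO1L1 gene family on chromosome 8, which is present in many near-identical copies so that its reads cannot be placed with certainty, had 23 and 13 fragments for DMSO H3K36me2 and 30 and 24 for AS-99 H3K36me2.

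The others of the 12 lay in sequence with few or no repeated words, or near a chromosome end. The region 8552 bp from TNFSF9, the ligand of the T-cell costimulatory receptor 4-1BB, had 30, 27, 21 and 25 fragments in the same order of libraries. The intron of SHISA7 had 18, 23, 17 and 19, and the region 283432 bp from HAS2, a hyaluronan synthase gene, had 13, 17, 16 and 17. The region near ZNF595 at the end of chromosome 4 had 31, 21, 25 and 28, with 42.6% repeated words. In none of these did the H3K36me2 pileup of the AS-99 library fall outside the Poisson interval of the DMSO library.

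The difference in H3K36me2 retention, 12.9 points over all peaks away from gaps, was also taken without repeated sequence. That setting was chosen after the data were seen, and the part of repeats in the difference was not tested. Windows of at least 50% repeated words made up 13 of the 217 shared regions and 56 of the 1086 others. Without them, 33 of 204 shared regions (16.2%) and 47 of 1030 others (4.56%) had an AS-99 H3K36me2 peak, a difference of 11.6 points (6.96 to 17.4). An AS-99 ASH1L peak overlapped 52 of the 204 shared regions (25.5%) and 54 of the 1030 others (5.24%). That is a description, since the sets were split by a DMSO ASH1L peak.

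Among the 10 regions with the highest DMSO H3K36me2 pileup, apart from HFM1, the regions near IRS4 and TMEM106A and one near SDC2, 6 had no AS-99 H3K36me2 peak. The other 4 of the 10 had one, beside 23.2% of the 56 shared regions with 25 fragments or more. An intron of ATG5, an autophagy gene, had 41 fragments of H3K36me2 and 21 of ASH1L with DMSO. An exon of DEDD2 had 39 and 28, and kept an AS-99 ASH1L peak of 35 fragments. The region near IRF2BP2, a corepressor gene, had 38 and 26, and that near XCR1, a chemokine receptor gene, had 35 and 23. Those near KIF5B and MTSS1 had 35 each for H3K36me2, with AS-99 ASH1L peaks of 22 and 24 fragments. The tenth place was tied, with 12 regions at 35 fragments or more, and the tie was broken by fold enrichment.

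The genes of 4 lists were looked up near the shared regions. Within 5 kb of a shared region away from gaps lay 1 of 24 MLL fusion target genes, and no gene of the lists for H3K36 methylation (16 genes), MLL1 complexes and elongation (14) and myeloid identity (18). Over all protein-coding genes 0.707% lay that close, and with lists of this size the counts are too small to read against that share. ASH1L peaks as a whole, shared or not, were within 5 kb of 8 of the 24 MLL fusion targets (33.3%), 8 of the 14 genes of MLL1 complexes and elongation (57.1%), 3 of the 16 H3K36 methylation genes (18.75%) and 2 of the 18 myeloid genes (11.1%), against 12.2% of all protein-coding genes. For DMSO H3K36me2 peaks, shared or not, the shares were 8.33%, 21.4%, 6.25% and 5.56% in the same order, against 3.94%. The lists were chosen with earlier results of these data known, so these shares are a description. The 1 MLL fusion target near a shared region was RUNX1, a transcription factor of blood cell development. It held a pair of intronic shared regions. At chr21:36880835-36881380 the pileup was 25 for H3K36me2 and 21 for ASH1L with DMSO, and no AS-99 peak was listed. At chr21:37110210-37110681 it was 22 and 16 with DMSO, and H3K36me2 had 17 with AS-99 while no AS-99 ASH1L peak was listed.

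Several further loci of blood cells were singled out after their values had been seen, outside the naming rule. They are examples and do not show that shared regions favour such genes, since 0 of the 18 myeloid list genes lay within 5 kb. An intron of MS4A4A and an exon of MS4A7, both in the same gene family on chromosome 11, had 33 and 32 fragments for H3K36me2 and 23 and 26 for ASH1L. A region 6107 bp from CEBPA, a factor of myeloid differentiation and a gene of the myeloid list that this distance leaves outside the 5 kb window, had 27 and 22. An intron of LAIR1, an inhibitory collagen receptor, had 27 and 25. A region 38037 bp from LMO2, a cofactor of blood stem cell transcription, had 25 and 17. LMO2 is on the list of MLL fusion targets, and this distance leaves it outside the 5 kb window too. None of these 5 regions had a peak in an AS-99 list. That was also the state of 65.9% of the 217 shared regions away from gaps. Among all DMSO H3K36me2 peaks away from gaps the share was 86.6%, so nothing is read from these 5. A region in an intron of THEMIS2, a signalling protein of B cells and macrophages, was in all 4 lists with 19, 27, 17 and 20 fragments.

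Shared regions were unevenly spread over the chromosomes. Chromosome 19 held 29 of the 217 (13.4%) and 4.05% of the peaks without ASH1L, and 39.7% of its H3K36me2 peaks were shared. It also held 276 ASH1L peaks, 9.27% of those away from gaps. Chromosome 8 held 23 (10.6%) and 9.30%, and chromosome 1 held 22. Of the 29 shared regions on chromosome 19, 7 had an AS-99 H3K36me2 peak and 9 an AS-99 ASH1L peak. Over all chromosomes the shares were 17.5% and 26.7% of shared regions, and 6.75% and 8.83% of all DMSO H3K36me2 peaks away from gaps. Without chromosome 19 the difference in H3K36me2 retention was 11.8 points (6.94 to 17.9). Regions rarely lay together: only 6 pairs were within 100 kb of each other away from gaps, among them those at REXO1L1, MS4A7, EPS15L1 and TMEM106A.

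Shared regions were richer in G and C than other H3K36me2 peaks. Their median GC content was 48.7% (interquartile range 44.1% to 55.4%), against 43.5% (37.9% to 49.98%). In 300 bp around the summit the ASH1L peaks without H3K36me2 had a median of 54.3%, and 28284 windows spaced evenly over the genome had 40.0%. Shared regions thus lay between both other sets. Windows were also searched on both strands for 8 short motifs, which differ in letters and do not contain one another.

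The PU.1-type ETS motif GAGGAAG was in 18.9% of shared regions, 17.0% of H3K36me2 peaks without ASH1L, 13.9% of ASH1L peaks without H3K36me2 and 7.62% of the evenly spaced windows. PU.1 is a master regulator of myeloid cells. One match is in the STK40 window printed above, and the other windows printed hold none of the 8 motifs. The RUNX motif TGTGGT was in 29.95%, 26.8%, 20.5% and 19.5% of the same sets, the C/EBP motif TTGCNNAA in 20.7%, 21.6%, 11.8% and 15.9%, and the AP-1 motif TGANTCA in 19.4%, 14.8%, 11.4% and 9.29%. For each of these 4 the interval of the difference between shared regions and other H3K36me2 peaks included 0, and shared regions were above the ASH1L peaks without H3K36me2, by 4.94 points (0.10 to 10.8), 9.41 (3.50 to 16.0), 8.96 (3.94 to 14.95) and 7.98 (3.11 to 13.9).

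The SP/KLF motif GGGCGG was in 11.98% of shared regions, 6.45% of other H3K36me2 peaks and 27.1% of ASH1L peaks without H3K36me2. The promoter-type ETS motif CCGGAAG was in 4.15%, 0.921% and 6.59%. The GATA motif AGATAA was in 11.1%, 19.98% and 9.75%, and the difference between shared regions and other H3K36me2 peaks was −8.92 points (−13.2 to −3.55). The CTCF core was in 1.84%, 1.01% and 2.64%. A match describes the letters in the window, and base composition differs between the sets. Its part in these shares was not tested.

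**Figure D5:**
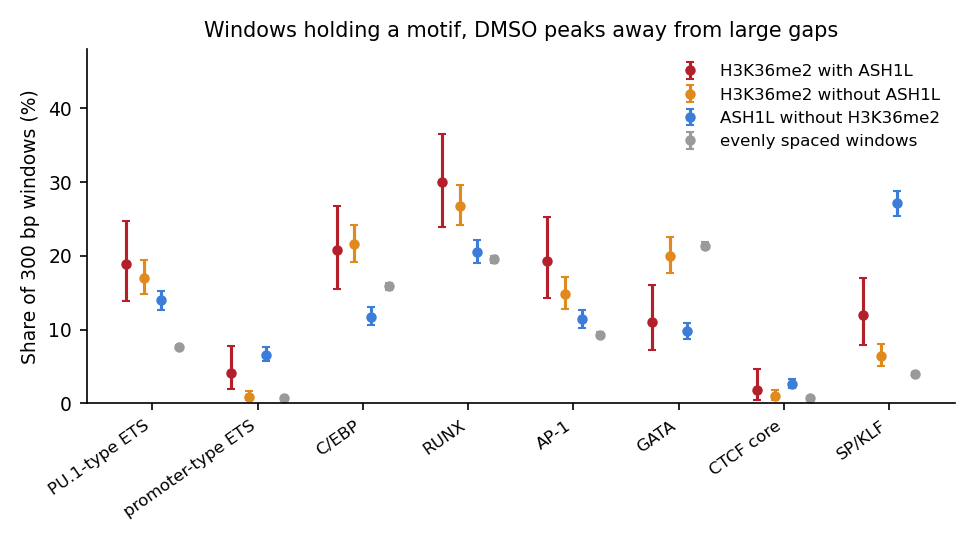
Share in percent of 300 bp windows around the summit that hold each of 8 motifs on either strand, for shared regions (red), H3K36me2 peaks without ASH1L (orange), ASH1L peaks without H3K36me2 (blue), all with DMSO and away from large gaps, and evenly spaced windows of the genome (grey). Bars are exact 95% intervals; for the GATA motif shared regions (11.1%) lie with the ASH1L peaks (9.75%), and for the C/EBP motif (20.7%) with the H3K36me2 peaks (21.6%).

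Beside large gaps the shared regions were of another kind. The 34 regions had a median H3K36me2 pileup of 51 (14 to 2909) and a median ASH1L pileup of 84, with summits a median of 9 bp apart. Of their windows 28 (82.4%) were repeated sequence, 33 regions were intergenic and 1 was in an intron of KAT6A. The pileups there include fragments that could come from any copy of the repeat. Chromosome 16 held 10 of them and chromosome 10 held 6.

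Most of these regions were listed in every library. An AS-99 H3K36me2 peak was listed at 27 of 34 (79.4%) and an AS-99 ASH1L peak at 27, both at 25, and neither at 5. The shares over all 56 DMSO H3K36me2 peaks beside gaps were 53.6%, 51.8%, 46.4% and 41.1%. The highest were at chr1:121484429-121485412 and chr7:61968685-61969703, followed by chr6:58776575-58779458, with DMSO H3K36me2 pileups of 2909, 2466 and 1192, then chr21:9826826-9827567 with 388 and chr16:46391310-46392236 with 265. At the last, DMSO ASH1L had 601 fragments, AS-99 H3K36me2 427 and AS-99 ASH1L 546.

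The H3K36me2 pileup of these regions, scaled to filtered fragments, was higher with AS-99 at all 27 matched regions, with a median log2 ratio of 0.54 (0.38 to 0.70). Unscaled it was higher at 22 and lower at 4, with a median of 0.30 (0.14 to 0.46). Of the 3 matched H3K36me2 peaks beside gaps without ASH1L, 0 were higher when scaled, with a median of −0.11. For ASH1L 23 of 27 were higher, with a median of 0.26 (0.21 to 0.45), and unscaled the median was −0.09 (−0.14 to 0.10), so its direction depends on the scaling. Of the 15 matched ASH1L peaks beside gaps without H3K36me2, 10 were higher when scaled, with a median of 0.03 (−0.17 to 0.23). The scaled interval for H3K36me2 at the 27 shared regions lay wholly above that of the 38 matched shared regions away from gaps (−0.19 to 0.14). Some of the regions beside gaps are neighbours in the same repeat array, so they are not independent of one another.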

How the data were processed

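The data were 4 peak lists, 1 per CUT&RUN library, deposited by the authors, who called each library separately with no control. Per the file headers, MACS 2.1.0.20150731 took fragment pairs, a local background of 10 kb, up to 2 duplicates per position and q-values of at most 0.01. The study's methods text gives other calling settings, a selection of fragments by length, replicates and a slightly different dose, and the headers and labels were followed. The deposited signal is the unscaled summit pileup, fold enrichment is a deposited ratio of the pileup to its local background, and the deposited −log10 p-value and −log10 q-value score it. Groups came from the labels. Reads had been mapped to hg19 with Bowtie2, per the labels.

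Overlaps were counted in Python 3.11.15 (pandas 2.3.3, bedtools 2.31.1 as a check) and tested on simulated lists. Genes and sequences came from GENCODE release 44 mapped to GRCh37 and the GRCh37 assembly, which has the chromosome lengths of hg19. A promoter was the 1 kb on either side of a protein-coding gene's start; other peaks were classed by the summit. With 1 library a group no test was possible and no p-value is given. Shares have exact Clopper-Pearson intervals, differences of shares Newcombe intervals (statsmodels 0.14.6), medians order-statistic intervals and pileups exact Poisson intervals, all at 95%. They describe counting error or spread between peaks alone, since fragments lack molecular identifiers and may be copies of one molecule. Pileups were divided by filtered fragments only for matched pairs.

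Regions named were the 10 with the highest H3K36me2 pileup, up to 15 at promoters by ASH1L fold enrichment, up to 12 in all lists by H3K36me2 fold enrichment, the 5 smallest overlaps and the 5 nearest misses, those within 5 kb of a listed gene, and the 5 highest beside gaps. The regions, the gene lists and these rules were chosen with earlier results of these data known. Mitochondrial and other chromosomes were left out. Alternatives were a 50% reciprocal overlap, a 1 kb tolerance, higher thresholds, other gap distances, an unscaled pileup, a promoter of 2.5 kb and GC content at the summit.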

Additional observations from a re-analysis of the deposited data

Results flagged for a closer look

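The DMSO H3K36me2 list also held 16 peaks outside chromosomes 1 to 22 and X, which no comparison above uses. All 16 were overlapped by a DMSO ASH1L peak, compared with 251 of 1359 on the chromosomes used. Of these, 6 were mitochondrial, with fold enrichments over their local background between 1.42 and 2.47.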

How the results depend on the processing

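No paired analysis was possible because there was 1 library a group. Over 8 results, 55 alternative values were computed, of which 46 lay inside the reported 95% interval, 9 lay outside and 0 changed the direction of a difference whose interval excluded 0. The settings without repeated windows and without chromosome 19 were chosen after the data were seen, and all of their values stayed within the interval.

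A reciprocal overlap of 50% gave a shared share of 11.8% and a median summit distance of 81 bp, since it keeps regions whose peaks coincide. A −log10 p of at least 10 left 70 shared regions and gave a difference in AS-99 ASH1L peaks of 29.4 points, a median summit distance of 73 bp and a GC difference of 8.03 points. A fold enrichment of at least 5 left 52 and gave differences of 23.9 points (H3K36me2) and 32.0 points (ASH1L) and a share in neither AS-99 list of 53.8%. Without scaling, the matched log2 ratio was −0.27 (−0.43 to −0.10), so its interval excluded 0 although the reported one included it. The promoter difference of 2.40 points became 4.22 (0.36 to 9.91) with the reciprocal overlap and 0.12 with the fold threshold. The ASH1L differences are descriptions, since the sets were split by a DMSO peak of that antibody. Other causes were not tested.

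Depth limits these results: the median shared region rests on 21 H3K36me2 and 20 ASH1L fragments, and 1 library a group leaves no measure of variation between cultures.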
